A study of Homo sapiens with 16 samples.

Results

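The 48 genes described here carry out homologous recombination, the Fanconi pathway of crosslink repair and the checkpoint signalling that goes with them. They were chosen by name, with earlier results of these data known, and kept when their symbol stood in all 6 of the authors' comparison tables. All 48 did, among 12069 genes listed in all 6 tables and 19315 listed in any. The study used small interfering RNA (siRNA) to deplete MYBL1 (A-MYB), MYBL2 (B-MYB) or both in U2OS, a human osteosarcoma line, and HCT116, a human colorectal carcinoma line, and asked how these transcription factors act in the mitotic cell cycle. Total RNA was sequenced after 48 h. In each line the groups were double knockdown (siMYBL1 with siMYBL2), siMYBL1, siMYBL2 and siCtrl, an siRNA with no human target, with 2 libraries each and 16 in all, which the design text calls biological replicates. Every group therefore carried siRNA, and each knockdown of a line was set against the same 2 siCtrl libraries.

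Homologous recombination copies a broken DNA end from an intact sister molecule. The end is resected, BRCA1, PALB2, BRCA2 and further mediators prepare the single strand to invade the sister, and the joined molecules are then dissolved by the BLM complex or cut by nucleases. The Fanconi core complex and its ubiquitin-conjugating enzyme UBE2T mark the FANCD2 and FANCI clamp at interstrand crosslinks, and this opens the way for the nucleases. Many of these genes are transcribed in S and G2 phase, under E2F factors and the complexes that MYBL2 forms with MuvB.

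The deposited tables hold comparisons and no value per library, so the levels below are group means that were recovered from each gene's mean normalized count and its fold change. The spread between the 2 libraries of a group can be seen only through the standard error of the fold change, and read depth is unknown. The siCtrl level of a gene, recovered from each of the 3 tables of a line, differed between the highest and the lowest estimate by a median ratio of 1.06 in U2OS and 1.08 in HCT116 over the 48 genes. MYBL2 was at 4.34% of its siCtrl level after double knockdown in U2OS and at 9.92% in HCT116, and MYBL1 was at 43.5% in U2OS and 27.8% in HCT116. After siMYBL1 alone MYBL1 was at 50.7% in U2OS and 31.4% in HCT116, and after siMYBL2 alone MYBL2 was at 4.53% in U2OS and 9.05% in HCT116. Of 8 epithelial markers 4 were listed in all 3 U2OS tables, with a summed mean normalized count of 48408 to 54238, and 7 in the HCT116 tables, with 71363 to 81108. Of 8 mesenchymal markers 6 were listed in U2OS, with a summed mean normalized count of 69032 to 77743, and 5 in HCT116, with 743.2 to 968.9. None of 6 blood markers was listed in all 3 tables of either line. RNA came from whole cultures, so fewer cells in the stages that use these genes and less of their RNA per cell cannot be told apart.

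Double knockdown lowered a minority of the repair genes, and the helicase gene PIF1 was by far the most reduced of them in both lines. In U2OS, 8 of the 48 genes were lower at an adjusted p under 0.05 and 40 did not pass, while 6.06% of all 16803 genes tested were lower and 6.55% higher. In HCT116, 14 were lower and 34 did not pass, where 4.12% of 12885 genes were lower and 2.82% higher. No repair gene was higher at an adjusted p under 0.05 in either line. The 48 genes were chosen with earlier results of these data known, so these counts are not an independent test of the list. The median log2 fold change of the 48 genes was -0.18 in U2OS and -0.39 in HCT116, where the medians of all genes tested were 0.01 and -0.02. At an unadjusted p under 0.05, 14 of the 48 passed in U2OS, where 23.1% of all genes did, and 24 in HCT116, where 18.5% did. A value below 0 was found for 38 of 48 genes in U2OS, where 49.2% of all genes lay below 0, and for 43 of 48 in HCT116, where 52.4% did. Each of the 48 genes had a mean normalized count of 136.6 or more in every table, while the double knockdown tables also hold genes down to 14.5 in U2OS and 40.4 in HCT116, so genes with lower counts stand behind these shares.

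**Figure D1:**
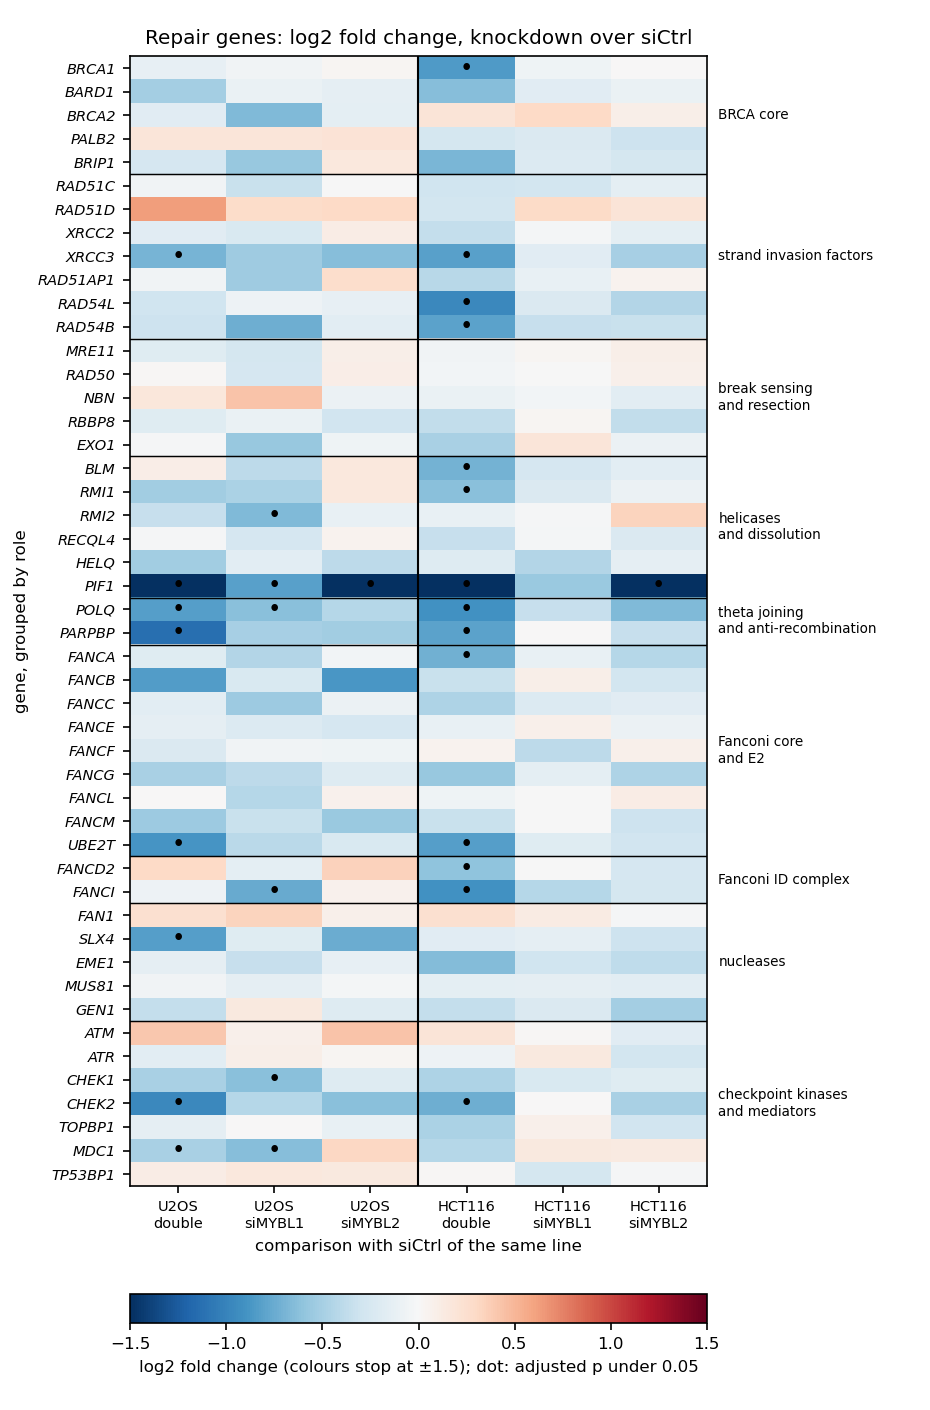
Log2 fold changes of the 48 repair genes in 6 comparisons with siCtrl of the same line, genes in rows grouped by role and comparisons in columns. Blue is lower after knockdown, colours stop at ±1.5 and a dot marks an adjusted p under 0.05. The HCT116 double knockdown column holds 14 dots and the U2OS column 8, PIF1 has a dot in 5 of 6 columns, and no dot lies on a red cell.

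PIF1 encodes a helicase that unwinds structured DNA such as G-quadruplexes and, in yeast, drives the long synthesis of break-induced replication. In the authors' tables it lies on the reverse strand of chr15:64815632-64825668 (hg38). The estimated level of PIF1 was 55.6 normalized counts after double knockdown in U2OS, against 1374 in siCtrl. In HCT116 it was 37.5 after double knockdown, against 333.5 in siCtrl. PIF1 was thus at 4.05% of its siCtrl level in U2OS and at 11.2% in HCT116. For U2OS the authors' deposited table gave a log2 fold change of -4.63 ± 0.24 (SE, DESeq2 adjusted p = 9.48e-78). For HCT116 the authors' deposited table gave -3.15 ± 0.34 (SE, DESeq2 adjusted p = 3.31e-18). The medians of the 48 genes moved little without it, to -0.17 in U2OS and -0.37 in HCT116.

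Of the repair genes lowered by double knockdown, 6 passed in both lines, which is 75% of the 8 in U2OS and 42.9% of the 14 in HCT116. Over the 12388 genes in both double knockdown tables, 311 were lower in both lines, which is 35.5% of those lower in U2OS and 59.0% of those lower in HCT116. Besides PIF1 they were POLQ, PARPBP, UBE2T, CHEK2 and XRCC3. POLQ, the polymerase of theta-mediated end joining, was at 801.2 normalized counts after double knockdown in U2OS, against 1422 in siCtrl. In HCT116 POLQ was at 343.3, against 646.3 in siCtrl. PARPBP, which restrains recombination, was at 220.2 after double knockdown, against 483.1 in U2OS siCtrl, and at 297.6 against 520.7 in HCT116. Both belong to routes that compete with or limit recombination, and they are the only 2 genes of their role. Of the 9 roles into which the genes were sorted, this small one was the only role in which every gene passed in both lines. A role of 2 genes can pass in full more easily than a larger one, and the genes were chosen with earlier results known. This count therefore does not set the role apart. In the authors' deposited tables POLQ had log2 fold changes of -0.83 ± 0.23 in U2OS (DESeq2 adjusted p = 0.00478) and -0.91 ± 0.23 in HCT116 (DESeq2 adjusted p = 0.00266). PARPBP had -1.13 ± 0.25 in U2OS (DESeq2 adjusted p = 0.00015) and -0.81 ± 0.24 in HCT116 (DESeq2 adjusted p = 0.0147) in the authors' deposited tables.

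UBE2T, the conjugating enzyme that works with the ligase FANCL, was at 728.9 normalized counts after double knockdown, against 1351 in U2OS siCtrl, and at 847.4 against 1507 in HCT116. The authors' deposited tables gave UBE2T log2 fold changes of -0.89 ± 0.20 in U2OS (DESeq2 adjusted p = 0.000225) and -0.83 ± 0.18 in HCT116 (DESeq2 adjusted p = 0.000326). CHEK2, the checkpoint kinase that ATM activates, was at 338.1 after double knockdown, against 658.4 in U2OS siCtrl, and at 421.4 against 702.4 in HCT116. Its log2 fold changes in the authors' deposited tables were -0.96 ± 0.22 in U2OS (DESeq2 adjusted p = 0.000398) and -0.74 ± 0.22 in HCT116 (DESeq2 adjusted p = 0.0164). XRCC3, which pairs with RAD51C in strand invasion, was at 420.0 after double knockdown, against 680.1 in U2OS siCtrl, and at 461.9 against 814.9 in HCT116. The authors' deposited tables gave XRCC3 log2 fold changes of -0.70 ± 0.22 in U2OS (DESeq2 adjusted p = 0.0189) and -0.82 ± 0.20 in HCT116 (DESeq2 adjusted p = 0.00176). Apart from PIF1, the genes lowered in both lines thus kept between 45.6% and 61.7% of their siCtrl level.

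**Figure D2:**
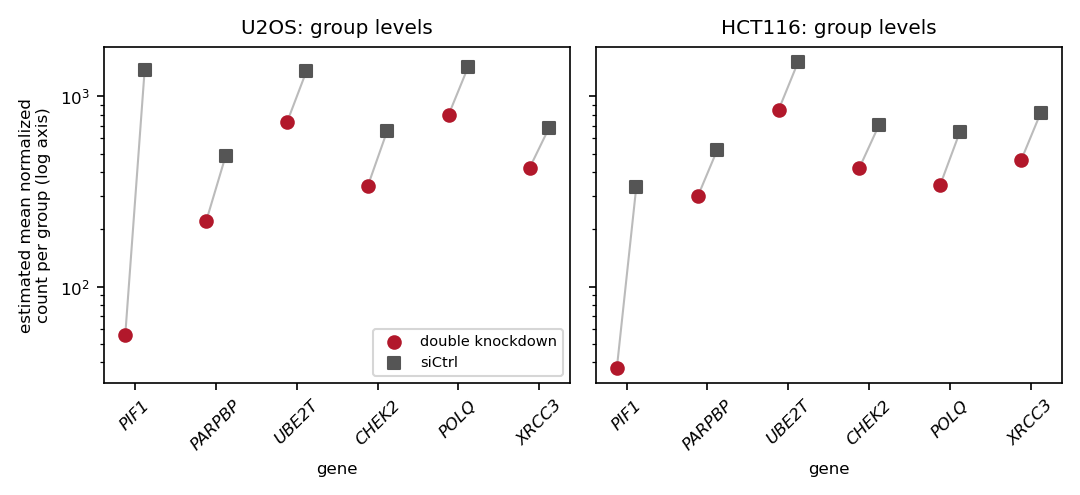
Estimated mean normalized count per group (log axis) of the 6 repair genes lowered by double knockdown in both lines, with double knockdown as red circles and siCtrl as grey squares. PIF1 lies at 55.6 and 37.5 after double knockdown in U2OS and HCT116, against 1374 and 333.5 in siCtrl, and the other genes show much shorter lines.

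The promoters of these 6 genes are shown because the genes moved together and because the CHR and CCAAT elements are those through which MuvB complexes and NF-Y are known to act on G2 and mitotic genes. Each window runs from 250 bases before to 50 bases after the RefSeq start (GRCh38.p14), read 5′ to 3′ on the gene's own strand. Capitals mark matches to the CHR words on either strand, which were TTTGAA, the second word TTTAAA and the third word TTCGAA, and matches to CCAAT. The form ATTGG is a CCAAT match, and the form TTCAAA a CHR match, on the opposite strand. PARPBP has more than 1 window and the first is shown.
PIF1 promoter, chr15:64825598-64825897 (- strand): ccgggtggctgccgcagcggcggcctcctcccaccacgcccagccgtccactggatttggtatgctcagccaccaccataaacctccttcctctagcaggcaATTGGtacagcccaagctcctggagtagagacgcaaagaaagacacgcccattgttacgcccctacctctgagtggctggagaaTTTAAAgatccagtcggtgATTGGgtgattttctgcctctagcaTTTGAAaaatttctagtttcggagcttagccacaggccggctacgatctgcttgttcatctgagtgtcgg
POLQ promoter, chr3:121545939-121546238 (- strand): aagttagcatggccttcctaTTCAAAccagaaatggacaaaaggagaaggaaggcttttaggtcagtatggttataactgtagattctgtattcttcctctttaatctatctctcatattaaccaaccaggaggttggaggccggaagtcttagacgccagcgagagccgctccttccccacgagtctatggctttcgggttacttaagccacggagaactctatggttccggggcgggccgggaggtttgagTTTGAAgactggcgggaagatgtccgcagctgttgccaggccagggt
PARPBP promoter, chr12:102119933-102120232 (+ strand): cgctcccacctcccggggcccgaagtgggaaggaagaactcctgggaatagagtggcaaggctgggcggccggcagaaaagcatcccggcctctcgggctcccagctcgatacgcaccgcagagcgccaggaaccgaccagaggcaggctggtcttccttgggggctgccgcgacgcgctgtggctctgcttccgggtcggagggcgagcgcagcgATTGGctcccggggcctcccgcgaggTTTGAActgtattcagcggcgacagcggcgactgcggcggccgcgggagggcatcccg
UBE2T promoter, chr1:202341887-202342186 (- strand): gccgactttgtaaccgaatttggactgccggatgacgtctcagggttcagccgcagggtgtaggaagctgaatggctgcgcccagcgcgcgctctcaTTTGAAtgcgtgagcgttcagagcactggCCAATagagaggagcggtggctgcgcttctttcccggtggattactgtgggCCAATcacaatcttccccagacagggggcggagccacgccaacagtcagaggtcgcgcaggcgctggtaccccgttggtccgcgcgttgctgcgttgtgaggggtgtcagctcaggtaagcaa
CHEK2 promoter, chr22:28741771-28742070 (- strand): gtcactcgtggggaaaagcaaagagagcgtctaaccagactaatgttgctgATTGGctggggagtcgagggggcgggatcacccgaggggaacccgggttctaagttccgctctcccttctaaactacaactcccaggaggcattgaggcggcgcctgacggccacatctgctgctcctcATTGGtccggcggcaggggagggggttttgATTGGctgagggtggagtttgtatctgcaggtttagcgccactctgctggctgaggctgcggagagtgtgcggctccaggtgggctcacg
XRCC3 promoter, chr14:103715402-103715701 (- strand): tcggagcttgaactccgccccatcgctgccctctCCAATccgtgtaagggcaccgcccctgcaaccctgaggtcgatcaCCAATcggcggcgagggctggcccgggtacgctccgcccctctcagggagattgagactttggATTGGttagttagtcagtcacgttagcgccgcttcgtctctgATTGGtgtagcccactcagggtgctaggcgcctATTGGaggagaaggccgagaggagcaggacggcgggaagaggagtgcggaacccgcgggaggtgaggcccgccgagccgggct
Counted from the start to the first base of each match, PIF1 holds ATTGG 148 and 45 bases, TTTAAA 64 bases and TTTGAA 20 bases upstream. PARPBP holds ATTGG 34 bases and TTTGAA 8 bases upstream, the order of the PIF1 matches nearest the start, and lacks the farther ones. POLQ has TTTGAA from 4 bases after the start, TTCAAA 230 bases before it and no CCAAT match. UBE2T holds TTTGAA 153 bases before the start, upstream of both of its CCAAT matches. CHEK2 and XRCC3 hold CCAAT matches and no CHR match in the window.

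A window was found for 43 of the 48 genes, and RECQL4, RAD54B, NBN, RMI2 and FANCI had none. A CHR match was present in 12 of the 43 genes (27.9%), against 21.9% of 9400 genes listed in all 6 tables with a window. Of all 27305 genes with a window 7927 held a CHR match, a higher share than among the 43 repair genes. The E2F words were TTGGCGC, the second word TTCCCGC, the third word TTCGCGC and the fourth word TTGCCGC. They were present in 23 of 43 (53.5%), against 26.0% of the genes in all 6 tables and 15.3% of all genes with a window. CCAAT matches were also present in 23 of 43, against 43.6% and 39.7% in the same sets. The MYB words were TAACTG, the second word TAACGG, the third word CAACTG and the fourth word CAACGG. They were present in 20 of 43 (46.5%), against 29.8% in each of these sets. All were searched on both strands, and a CCAAT match read as ATTGG can share letters with the E2F word TTGGCGC, which then counts for both. Of the 6 genes lowered in both lines 4 held a CHR match, 5 a CCAAT match, 2 an E2F match and 3 a MYB match. These counts are descriptions of letters in a window and were not tested.

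Only SLX4 and MDC1 passed in U2OS and not in HCT116. Of all genes lower in U2OS, 35.5% were also lower in HCT116, so calls in U2OS alone were common. SLX4, the scaffold that holds several structure-specific nucleases, was at 359.5 normalized counts after double knockdown, against 639.2 in siCtrl of U2OS, and at 289.0 against 325.4 in HCT116. In the authors' deposited table for U2OS its log2 fold change was -0.83 ± 0.26 (DESeq2 adjusted p = 0.0159). MDC1, the adaptor that reads phosphorylated histone at breaks, was at 1963 after double knockdown, against 2746 in siCtrl of U2OS. The authors' deposited table gave MDC1 a log2 fold change of -0.48 ± 0.17 there (DESeq2 adjusted p = 0.034), and -0.43 in HCT116 (DESeq2 adjusted p = 0.113), so the call differs while the values are close. The U2OS change of MDC1 is the only passing double knockdown change smaller than the 0.5 that the authors' own flag also asks for.

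Another 8 genes passed in HCT116 and not in U2OS: BRCA1, RAD54L, RAD54B, BLM, RMI1, FANCA, FANCD2 and FANCI. Of all genes lower in HCT116, 59.0% were also lower in U2OS, so calls in HCT116 alone were not particular to the repair genes. The test between lines, given below, did not show any of these 8 to respond differently. BRCA1, the ligase that joins checkpoint signalling to resection, was at 650.2 normalized counts after double knockdown, against 1176 in HCT116 siCtrl. In U2OS BRCA1 was at 905.8, against 982.7 in siCtrl. The authors' deposited table for HCT116 gave BRCA1 a log2 fold change of -0.86 ± 0.18 (DESeq2 adjusted p = 0.00015). FANCI, the partner of FANCD2 in the clamp, was at 1475 after double knockdown, against 2770 in HCT116 siCtrl, and at 2439 against 2578 in U2OS. For FANCI in HCT116 the authors' deposited table gave -0.91 ± 0.19 on the log2 scale (DESeq2 adjusted p = 0.000157). FANCA, a subunit of the Fanconi core complex, was at 1143 after double knockdown, against 1878 in HCT116 siCtrl. Its log2 fold change in the authors' deposited table was -0.72 ± 0.16 (DESeq2 adjusted p = 0.000471).

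RAD54L, a motor protein that acts in invasion of the sister molecule, was at 348.8 normalized counts after double knockdown, against 682.0 in HCT116 siCtrl. Its relative RAD54B was at 344.2, against 601.1 in siCtrl, and BLM, the helicase that dissolves joined molecules, was at 566.0, against 924.3 in siCtrl. In the authors' deposited table for HCT116 the log2 fold changes were -0.97 ± 0.22 for RAD54L (DESeq2 adjusted p = 0.00066) and -0.80 ± 0.23 for RAD54B (DESeq2 adjusted p = 0.00995). BLM had -0.71 ± 0.20 in the authors' deposited table (DESeq2 adjusted p = 0.012). FANCD2 and RMI1, a partner of BLM, were at 65.7% and 64.7% of their HCT116 siCtrl level, and RMI1 passed with the largest adjusted p of the 14 genes (0.0475, DESeq2, from the authors' deposited table). In U2OS FANCD2 stood at 123.3% and BLM at 107.0% of siCtrl, and neither difference passed.

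By role, the 5 genes of break sensing and resection were the group with no passing gene in either line. Of all genes tested, 6.06% were lower in U2OS and 4.12% in HCT116, so the lack of a passing gene among 5 does not set this role apart. The roles are too small to be ranked by such counts. MRE11, RAD50 and NBN, which form the complex that first binds a break, were at 88.1%, 101.1% and 112.7% of siCtrl after double knockdown in U2OS and at 96.3%, 97.3% and 93.3% in HCT116. The 95% interval of the RAD50 log2 fold change in the authors' deposited tables ran between -0.39 and 0.43 in U2OS and between -0.35 and 0.27 in HCT116, so changes within these bounds could not be seen. Of 9 genes of the Fanconi core and its E2, 1 was lower in U2OS and 2 in HCT116. Of 5 nucleases and their partners, 1 was lower in U2OS and 0 in HCT116, with EME1 lowest in HCT116 at 63.6% of siCtrl (authors' deposited table, DESeq2 adjusted p = 0.0565). Of 7 strand invasion factors, 1 was lower in U2OS and 3 in HCT116. Of 7 checkpoint kinases and mediators 2 were lower in U2OS and 1 in HCT116, and the kinases ATM and ATR passed in neither.

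An adjusted p between 0.05 and 0.1 after double knockdown was found for 4 genes in U2OS (RAD51D, FANCG, FANCM and CHEK1) and for 6 in HCT116 (BARD1, BRIP1, FANCG, EME1, CHEK1 and TOPBP1). RAD51D was higher than in siCtrl, and the others were lower. The share of all genes in this range was not computed, so these counts have nothing to be read against. FANCG, a subunit of the Fanconi core complex, was at 1263 normalized counts after double knockdown, against 1763 in U2OS siCtrl, and at 643.7 against 951.1 in HCT116. Its adjusted p in the authors' deposited tables, by DESeq2, was 0.0562 in U2OS and 0.0543 in HCT116. BARD1, the partner of BRCA1 in its ligase, was at 70.5% of siCtrl in U2OS and 64.2% in HCT116, and BRIP1, a helicase that binds BRCA1, was at 84.0% in U2OS and 62.0% in HCT116. CHEK1, the kinase that ATR activates, was at 674.8 normalized counts after double knockdown, against 942.5 in U2OS siCtrl, and at 1017 against 1405 in HCT116. Its adjusted p in the authors' deposited tables, by DESeq2, was 0.0907 in U2OS and 0.0924 in HCT116.

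The remaining genes did not pass in either line. PALB2, which links BRCA1 to BRCA2, was at 113.0% in U2OS and 83.5% in HCT116. FANCB, another core subunit and the gene with the lowest mean normalized count of the 48 in U2OS, was at 98.6 normalized counts after double knockdown, against 176.1 in siCtrl, and its adjusted p in the authors' deposited table (DESeq2) was 0.155. FANCL, the ligase of the core complex and partner of UBE2T, was at 100.6% of siCtrl in U2OS and 95.5% in HCT116, while UBE2T fell in both lines. FANCM, the helicase that recruits the core complex, was at 68.5% in U2OS and 79.5% in HCT116, and the subunits FANCC, FANCE and FANCF ranged from 72.8% to 103.7% over both lines. The strand invasion factors RAD51C, XRCC2 and RAD51AP1 ranged from 88.8% to 96.6% in U2OS and from 75.2% to 81.3% in HCT116. The resection factors RBBP8 (CtIP) and EXO1 were at 88.0% and 99.0% in U2OS and at 77.4% and 71.2% in HCT116. The helicases RECQL4 and HELQ were at 98.5% and 69.9% in U2OS and at 78.9% and 87.6% in HCT116. GEN1, a resolvase, was at 77.9% in U2OS and 78.2% in HCT116, while MUS81, the partner of EME1, was at 96.3% in U2OS and 90.4% in HCT116. The crosslink nuclease FAN1 was at 117.8% in U2OS and 118.1% in HCT116. TOPBP1, which activates ATR, was at 91.4% in U2OS and 71.8% in HCT116, and TP53BP1, which holds back resection, was at 107.8% in U2OS and 101.6% in HCT116.

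BRCA2 was the least precisely measured of the 48 genes after double knockdown in HCT116, but not after either single knockdown there. The standard error of its double knockdown log2 fold change in the authors' deposited table was 0.72, while the median of the 48 was 0.22, and its 95% interval ran from -1.22 to 1.59. The highest log2 fold change of any repair gene after double knockdown was that of RAD51D, a partner of XRCC2, at 446.6 normalized counts against 289.2 in U2OS siCtrl. Its value in the authors' deposited table was 0.63 and did not pass (DESeq2 adjusted p = 0.0837).

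After siMYBL1 in U2OS 6 of 48 genes were lower, against 2.27% of 14763 genes tested, and these were FANCI, MDC1, PIF1, CHEK1, POLQ and RMI2. FANCI was at 1510 normalized counts after siMYBL1, against 2551 in siCtrl, and the authors' deposited table gave a log2 fold change of -0.76 ± 0.20 (DESeq2 adjusted p = 0.00596). MDC1 was at 1729 after siMYBL1, against 2689 in siCtrl, with -0.64 ± 0.18 in the authors' deposited table (DESeq2 adjusted p = 0.0105). PIF1 was at 701.6 after siMYBL1, against 1234 in siCtrl, with -0.81 ± 0.24 in the authors' deposited table (DESeq2 adjusted p = 0.0189). CHEK1 was at 606.8 after siMYBL1, against 939.8 in siCtrl, with -0.63 ± 0.20 in the authors' deposited table (DESeq2 adjusted p = 0.0282). POLQ was at 64.8% and RMI2, a partner of BLM and RMI1, at 63.2% of siCtrl, with DESeq2 adjusted p of 0.03 and 0.0406 in the authors' deposited table. The median log2 fold change of the 48 genes was -0.29 after siMYBL1 in U2OS, further from 0 than after double knockdown, and 39 genes lay below 0, where 47.8% of all genes did. At an unadjusted p under 0.05, 18 of the 48 passed, 17 lower and 1 higher, against 16.9% of all genes. Only 1 of these 6 genes, FANCI, also passed at an adjusted p under 0.01.

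After siMYBL1 in HCT116 none of the 48 genes passed DESeq2's adjusted p under 0.05, where 0.26% of 17323 genes did, and 2 passed an unadjusted p under 0.05, where 4.57% of genes did. After siMYBL2 PIF1 was the only repair gene to pass in either line, where 3.51% of 15478 genes were lower in U2OS and 0.837% of 13387 in HCT116. PIF1 was at 381.0 normalized counts after siMYBL2, against 1260 in U2OS siCtrl, and at 88.3 against 280.4 in HCT116. The authors' deposited tables gave log2 fold changes of -1.73 ± 0.20 in U2OS (DESeq2 adjusted p = 2.93e-14) and -1.67 ± 0.31 in HCT116 (DESeq2 adjusted p = 3.68e-05). At an unadjusted p under 0.05, 7 of the 48 passed in each line after siMYBL2, all lower, against 14.3% of all genes in U2OS and 8.07% in HCT116. The medians of the 48 genes were -0.07 in U2OS and -0.18 in HCT116.

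Over the 6 comparisons 30 of the 48 genes passed in none, 10 in 1, 6 in 2, POLQ in 3 and PIF1 in 5. Thus 62.5% of them passed in none, where 79.7% of the 12069 genes in all 6 tables did. Passing in 5 comparisons was found for 20 of the 12069 genes and passing in all 6 for 1. The knockdowns of a line share their siCtrl libraries, so these counts within a line are not independent.

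Whether double knockdown lowered the repair genes beyond each single knockdown was tested on the difference of the log2 fold changes. PIF1 was the only repair gene lower after double knockdown than after siMYBL1, with a difference of -3.81 ± 0.34 in U2OS and -2.60 ± 0.43 in HCT116 (SE, normal test, Benjamini-Hochberg adjusted p = 1.53e-25 and 3.83e-07). Of all genes tested, 1.54% passed in U2OS and 1.28% in HCT116. At an unadjusted p under 0.05, 2 of the 48 passed against siMYBL1 in U2OS, 1 lower and 1 higher, where 6.96% of genes passed, and 13 in HCT116, all lower, where 5.64% did. Against siMYBL2, PIF1 was again the only repair gene to pass in U2OS, with -2.90 ± 0.32 (normal test, Benjamini-Hochberg adjusted p = 9.66e-17), where 1.05% of genes passed, and 3 passed an unadjusted p under 0.05, where 5.57% of genes did. In HCT116 none of the 48 passed against siMYBL2, where 0.645% of genes did, and 6 passed an unadjusted p under 0.05, where 3.25% of genes did. PIF1 had -1.49 ± 0.46 there (normal test, Benjamini-Hochberg adjusted p = 0.148).

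These errors add the siCtrl spread in full although it cancels between comparisons of 1 line, so the test is strict. With the shared part taken out, by assuming a correlation of 0.5 between the fold changes, 12 repair genes passed between double knockdown and siMYBL1 in HCT116, all lower, where 4.14% of all genes passed. They were BRCA1, XRCC3, RAD54L, EXO1, PIF1, PARPBP, FANCA, UBE2T, FANCD2, CHEK2, TOPBP1 and MDC1. Against siMYBL2 in HCT116, 3 passed under the same assumption, BRCA1, PIF1 and FANCI, where 1.83% of genes did. BRCA1 had a difference of -0.80 from siMYBL1 and -0.86 from siMYBL2 in HCT116, with normal-test adjusted p of 0.000745 and 0.00102 under this assumption, and of 0.121 and 0.187 without it. The group means of BRCA1 in HCT116 were 650.2 normalized counts after double knockdown, 963.9 after siMYBL1 and 961.7 after siMYBL2, with siCtrl estimates from 959.6 to 1176. The highest of these siCtrl estimates came from the table that holds the double knockdown.

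In U2OS the same assumption added UBE2T and MDC1 to PIF1 as lower after double knockdown than after siMYBL2, where 4.11% of all genes passed, and added FANCI as higher after double knockdown than after siMYBL1, where 5.49% did. FANCI was at 2439 normalized counts after double knockdown, 1510 after siMYBL1 and 2863 after siMYBL2 in U2OS, with siCtrl estimates from 2551 to 2731. Its difference between double knockdown and siMYBL1 was 0.68 ± 0.20 with the shared part taken out (normal test, Benjamini-Hochberg adjusted p = 0.018) and did not pass without that step (adjusted p = 0.417). MDC1 stood in U2OS at 1963 after double knockdown, 1729 after siMYBL1 and 3375 after siMYBL2, with siCtrl estimates from 2689 to 2746. In U2OS the low MDC1 groups were those that received siMYBL1. MDC1 after siMYBL1 in HCT116 had a log2 fold change of 0.14 over siCtrl and did not pass. The part of siMYBL1 in the MDC1 values was not tested.

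**Figure D3:**
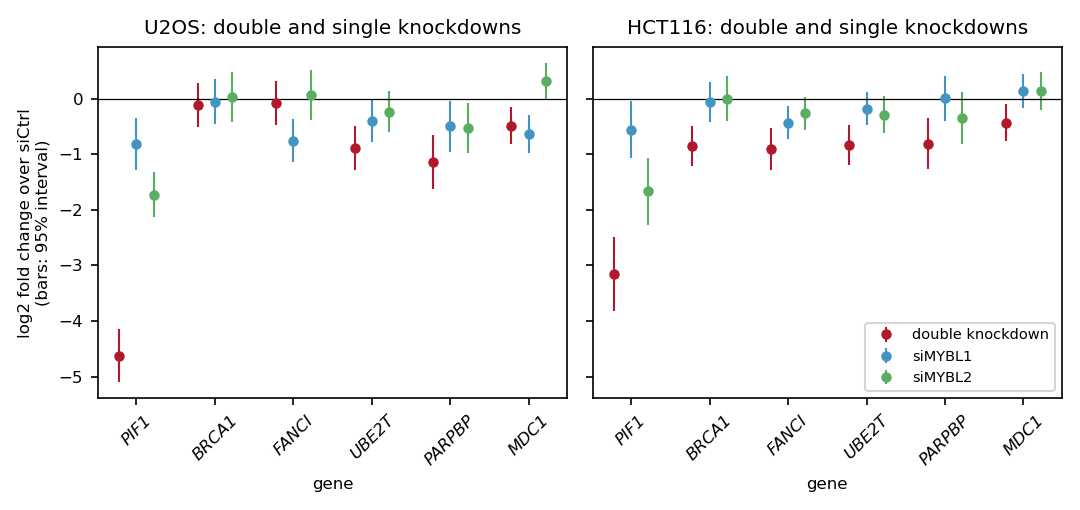
Log2 fold changes over siCtrl with 95% intervals for 6 repair genes, with double knockdown in red, siMYBL1 in blue and siMYBL2 in green. PIF1 reached -4.63 in U2OS and -3.15 in HCT116 after double knockdown, BRCA1 lay away from 0 only after double knockdown in HCT116, and FANCI and MDC1 in U2OS were low after siMYBL1 and not after siMYBL2.

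PIF1 after double knockdown lay further below siCtrl in U2OS than the sum of its 2 single log2 fold changes. The departure was -2.09 ± 0.40 on the log2 scale (normal test, Benjamini-Hochberg adjusted p = 0.000217), and 0.211% of all genes departed in U2OS. In HCT116 no repair gene departed by this test (normal test with Benjamini-Hochberg adjustment), where 0.14% of genes did, and BRCA1 and MDC1 were the 2 of 48 that passed an unadjusted p under 0.05, where 1.13% of genes did. PIF1 departed there by -0.93 and did not pass.

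The lines share no libraries, so their responses were compared directly. After double knockdown PIF1 was the only repair gene whose response differed, where 1.27% of 12388 genes did. Its log2 fold change was lower by 1.47 in U2OS than in HCT116, a U2OS minus HCT116 difference of -1.47 ± 0.41 with a 95% interval from -2.28 to -0.66 (normal test, Benjamini-Hochberg adjusted p = 0.0341). FANCD2 came next, with a difference of 0.91 ± 0.27 that did not pass (normal test, Benjamini-Hochberg adjusted p = 0.0573). FANCI, BLM and BRCA1 had differences of 0.83, 0.80 and 0.74, with adjusted p of 0.13, 0.187 and 0.205 by the same normal test. At an unadjusted p under 0.05, 8 of the 48 passed, 7 with a higher value in U2OS and 1 (PIF1) with a lower one, against 9.49% of all genes. So the 8 genes that passed in HCT116 and not in U2OS were not shown to respond differently between the lines. No repair gene differed between lines after siMYBL1 or siMYBL2 by the normal test with Benjamini-Hochberg adjustment, where 0.0594% and 0.215% of genes did. At an unadjusted p under 0.05 there were 3 after siMYBL1, which were MDC1, BRCA2 and EXO1, and 2 after siMYBL2, where 4.79% and 4.41% of all genes passed.

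**Figure D4:**
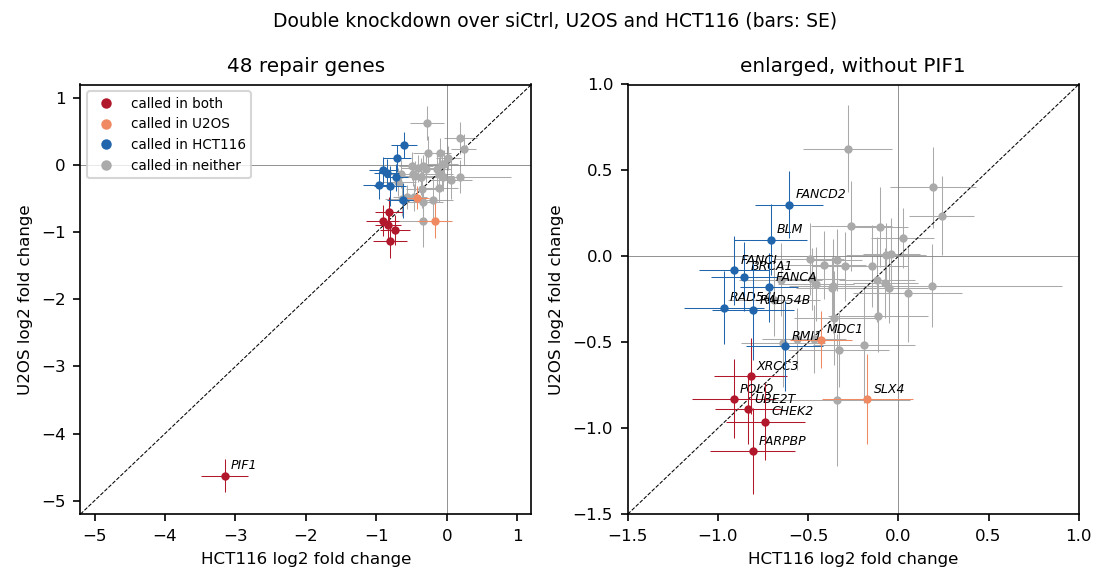
Double knockdown log2 fold changes of the 48 repair genes in U2OS (vertical axis) and HCT116 (horizontal axis), with SE bars and, on the right, an enlarged view without PIF1. Red points passed in both lines, orange in U2OS, blue in HCT116 and grey in neither, and the dashed line marks equal values. PIF1 lies far from the others at -4.63 and -3.15, and the blue genes lie above the dashed line.

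Across the 48 genes the double knockdown log2 fold changes of U2OS and HCT116 had a Pearson correlation of 0.81 and a Spearman correlation of 0.45. Without PIF1 the Pearson correlation over 47 genes was 0.44 and the Spearman correlation 0.42, so the first value rests on that gene. After siMYBL2 the values were 0.72 and 0.56, and without PIF1 0.50 and 0.53. After siMYBL1 they were 0.27 and 0.21, and without PIF1 0.20 and 0.16. These are correlations across genes, which are not independent replicates. A value below 0 in both lines was found for 36 of the 48 genes after double knockdown, 30 after siMYBL1 and 26 after siMYBL2. Of all genes in both lines' tables, 35.0% lay below 0 in both after double knockdown, 31.3% after siMYBL1 and 34.3% after siMYBL2.

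Other repair genes and cell cycle genes give the setting of these values. Of 58 further genes of recombination and crosslink repair, 2 were lower and 0 higher after double knockdown in U2OS, and 5 were lower and 1 higher in HCT116. Their median log2 fold changes were -0.08 in U2OS and -0.15 in HCT116. In U2OS the 2 were SFR1, a recombination cofactor, and BABAM2, a subunit of a BRCA1 complex. In HCT116 MMS22L, which acts in recombination at stalled forks, was at 44.9% of siCtrl (log2 fold change of -1.15 ± 0.24 in the authors' deposited table, DESeq2 adjusted p = 0.00013). DCLRE1A, a crosslink nuclease, was at 56.1%, USP1, the enzyme that removes ubiquitin from FANCD2, at 60.6%, and the checkpoint adaptor CLSPN at 65.1% of siCtrl, and all 3 passed in HCT116.

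Of 10 end joining genes 1 was lower and 1 higher in U2OS, and 1 was lower in HCT116, where XRCC6, a subunit of the Ku dimer, was the lower gene each time (70.9% of siCtrl in U2OS, 73.6% in HCT116) and PAXX, a Ku-binding cofactor, was the higher (159.9% in U2OS). Of 32 genes of excision and mismatch repair, 1 was lower and 2 were higher in U2OS and 5 were lower and 2 higher in HCT116. NEIL3, a glycosylase that also unhooks crosslinks, was at 36.4% of siCtrl after double knockdown in U2OS and at 38.6% in HCT116, lower than any of the 48 genes but PIF1. Among 50 genes of the G1/S transition and replication, 9 were lower in U2OS and 22 in HCT116, with medians of -0.20 and -0.53. Among 50 G2/M genes, 49 were lower in U2OS and all 50 in HCT116, with medians of -2.28 and -1.77. The G2/M and G1/S lists moved in the same samples as the repair genes, and their part in the repair gene values was not tested. The median of the 48 repair genes, -0.18 in U2OS and -0.39 in HCT116, lay far from that of the G2/M list. In U2OS it lay between the G1/S median of -0.20 and the end joining median of -0.12. In HCT116 it lay between the G1/S median of -0.53 and the end joining median of -0.16. PIF1 lay lower than every G2/M gene in both lines.

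**Figure D5:**
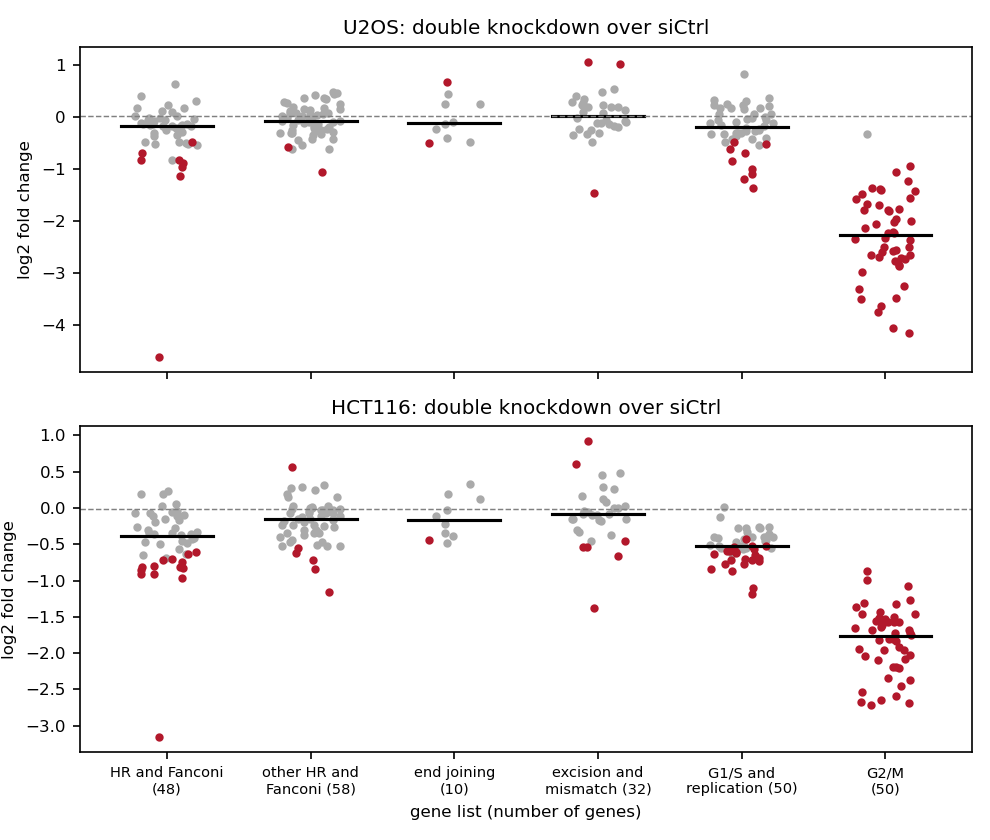
Double knockdown log2 fold changes of the 48 repair genes and of 5 other gene lists in U2OS (top) and HCT116 (bottom), 1 point per gene, with red for an adjusted p under 0.05 and a black line at the list median. The repair gene medians of -0.18 and -0.39 lie between those of the G1/S and end joining lists, the G2/M medians lie at -2.28 and -1.77, and PIF1 is the lowest red point of the repair list.

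An siRNA can also lower transcripts whose 3′ UTR matches its seed, so the 7-base words of 3′ UTRs were ranked by how low the genes holding them were. GAACTTA ranked first after siMYBL1 and CCTTACA after siMYBL2, each in both lines. After siMYBL1 in U2OS 10.4% of the genes holding GAACTTA were lower, against 2.01% of the genes without it, and after siMYBL2 in U2OS 9.31% of the genes holding CCTTACA were lower, against 3.66%. No source used here gives the siRNA sequences, so no match of a word to an siRNA was made. Among the repair genes MRE11, PIF1, FANCC, FANCF and ATR hold GAACTTA (10.4% of the 48). XRCC3, RAD54B, MRE11 and TOPBP1 hold CCTTACA (8.33%), so that 40 hold neither. These shares lay close to those of all genes searched. GAACTTA was held by 10.03% of the genes searched for siMYBL1 in U2OS and 9.88% in HCT116. CCTTACA was held by 9.02% of the genes searched for siMYBL2 in U2OS and 8.76% in HCT116. The sites of PIF1 and XRCC3 are shown because these genes passed in both double knockdowns, with the word in capitals (hg38).
PIF1 3′ UTR site, chr15:64815825-64815849 (- strand): cagagaacgGAACTTAggtgtgtct
XRCC3 3′ UTR site, chr14:103697817-103697841 (- strand): gtggccaggCCTTACAtctggctgg
Of the 6 genes lowered by siMYBL1 in U2OS, 1 (PIF1) holds GAACTTA and 5 do not. PIF1 does not hold CCTTACA and passed after siMYBL2 in both lines. The part of the words in the values of PIF1 and XRCC3 was not tested. POLQ, PARPBP, UBE2T and CHEK2, and in HCT116 BRCA1, RAD54L, BLM, FANCA, FANCD2 and FANCI, hold neither word. Only the longest annotated 3′ UTR of each gene was searched, and words of lower rank were not looked for in the repair genes. A lack of these words therefore does not show that a gene has no siRNA match.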

How the data were processed

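Total RNA from 16 libraries was measured by paired-end sequencing. The submitters' processing notes name cutadapt 4.4, Salmon 1.10.1, DESeq2 1.40 and the build hg38, with no order or settings; no source used here gives the annotation, the filters or the handling of strand, so reads of overlapping genes cannot be told apart. The deposited data are 6 tables of the authors' comparisons, each over 4 libraries. Their base mean is a signal, the mean normalized count, per the file headers. The authors give fold changes of knockdown over siCtrl, and their standard errors, as log2 values. The Wald statistic they deposited is a score, and the deposited p-value and adjusted p-value follow from it by a 2-sided normal test and Benjamini-Hochberg adjustment over the genes listed, which was checked for every gene. The deposited flag marks an adjusted p under 0.05 with a change of more than 0.5 on the log2 scale.

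From these, a call was an adjusted p under 0.05 in the authors' table. The siCtrl level was taken as 2 x base mean / (1 + 2 to the power of the log2 fold change). Differences of log2 fold changes were divided by the standard error that the variances of both add up to, tested 2-sided against the normal distribution and adjusted over all genes in the tables concerned, in 4 comparisons of double with single knockdown, 3 between lines and 2 of additivity. The steps were tested on simulated data. Python 3.11.15, pandas 2.3.3, numpy 2.4.6 and scipy 1.17.1 were used. Promoters were RefSeq windows (GRCh38.p14), and 3′ UTRs were read from the hg38 annotation of the reference. With 2 libraries per group and no value per library, depth and library spread are unknown, and no count model could be fitted.

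All 48 genes could be named. Full statistics were kept for genes with an adjusted p under 0.05, at most the 12 with the smallest adjusted p in a comparison. MYBL1 and MYBL2 were always named, with up to 4 genes of each other list by the smallest adjusted p. The genes and lists were chosen with earlier results of these data known. Alternatives were an adjusted p under 0.01, a minimum change of 0.5, a base mean of 100 or more, centring on the median, and shared controls taken out. Leaving out genes that hold a 3′ UTR word was chosen after seeing the data.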

Additional observations from a re-analysis of the deposited data

Results flagged for a closer look

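The response of PIF1 to double knockdown differed between the lines, with a U2OS minus HCT116 log2 difference of -1.47 ± 0.41 (SE, normal test, Benjamini-Hochberg adjusted p = 0.0341). It stood out because the test of the difference between the cell lines itself passed. The estimated level of PIF1 was 55.6 normalized counts after double knockdown, against 1374 in siCtrl of U2OS, and 37.5 against 333.5 in HCT116, in tables that were normalized separately. What lies behind the difference was not tested.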

How the results depend on the processing

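Of the counts of passing repair genes under other settings 55 stayed within 1.5 times the reported count and 17 moved. Of the values of single genes, all of which passed as reported, 171 stayed on their side of the threshold and 16 no longer passed. Only centring on the median alters a fold change, so under the other settings the direction could not change. Under centring none changed sign. Testing only the genes in all 6 tables, or asking for a change of 0.5 or more, moved no count by more than 1.5 times. An adjusted p under 0.01 left 1 of 6 genes for siMYBL1 in U2OS, 5 of 8 for double knockdown in U2OS, 9 of 14 for double knockdown in HCT116 and 0 of 1 between lines. A base mean of 100 or more, which shortens the list tested, gave 2 genes in place of 1 for siMYBL2 in U2OS and for double knockdown against siMYBL2 in U2OS. With shared controls taken out, double knockdown differed from siMYBL1 in 2 genes in U2OS and 12 in HCT116 (reported as 1 and 1), and from siMYBL2 in 3 genes in U2OS and 3 in HCT116 (reported as 1 and 0). Without the 8 genes that hold a 3′ UTR word, an alternative chosen after seeing the data, PIF1 is not counted and the count of 1 became 0 for siMYBL2 in each line, for double knockdown against siMYBL1 in each line, for double knockdown against siMYBL2 in U2OS, between lines after double knockdown and for departure from additivity in U2OS. MDC1 in U2OS double knockdown had -0.48 and fell short of the size of 0.5. Centred on the median of all genes RMI1 in HCT116 double knockdown had -0.60 and no longer passed. No paired analysis was possible because the deposited tables hold no value per library. For the same reason leaving out each replicate was not run. Depth is unknown, so a gene that did not pass may still have changed within its interval.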
